A study of Mus musculus with 4 samples.

Results

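The genes described here are 9 transcription factors of the oligodendrocyte lineage, chosen by name and not by their values: Olig1, Olig2, Sox10, Sox8, Myrf, Nkx2-2, Nkx6-2, Zfp488 and Tcf7l2. They are 9 of the 32285 genes in the deposited count matrices, and each symbol occurred there once. The study sequenced single nuclei from the microdissected lateral septum (LS), a forebrain region below the corpus callosum, in male mice aged 6 to 8 weeks. C57J libraries 1 and 2 came from C57BL/6JNifdc mice, 1 library from BALB/c nude mice, which lack T cells and derive from BALB/c, and 1 library from BALB/c mice. Each library was a pool of 3 mice, so the values hold no spread between animals. C57J 1 was in batch 1 and the other 3 libraries were in batch 2, so strain was compared within 1 batch only when C57J 1 was left out.

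Oligodendrocytes arise from oligodendrocyte precursor cells (OPCs), which go on dividing in the adult brain, pass through a short forming stage in which they leave the cell cycle, and end as mature oligodendrocytes (OLs) that wrap axons in myelin. Olig1 and Olig2 are basic helix-loop-helix factors, and Olig2 sets the lineage. Sox10 and Sox8 are related HMG-box factors, of which Sox10 drives many lineage genes including Myrf. Myrf is a membrane-bound factor that is cut free and turns on myelin genes. Nkx2-2 and Nkx6-2 are homeobox factors, Zfp488 is a zinc finger factor that works with Olig2, and Tcf7l2 is a DNA-binding partner of β-catenin in Wnt signalling that is known to be high in oligodendrocytes as they form.

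The libraries held 12558 to 17025 barcodes and 72912922 to 125998527 UMIs (unique molecular identifiers, each 1 counted RNA molecule). After filters on depth and predicted doublets, 10913 to 13075 nuclei per library were kept, with a median depth of 5588 UMIs for C57J 1, 4529 for C57J 2, 4934 for nude and 8200 for BALB/c. Pairs of libraries shared 29 to 56 barcodes. The 9 genes and 30 other lineage regulators were kept out of the clustering, which gave 420, 396, 432 and 491 OPCs, 80, 89, 38 and 20 forming oligodendrocytes and 1215, 1268, 1002 and 1536 mature OLs, the 2 C57J libraries being given first, then nude, then BALB/c. Pdgfra, Cspg4 and Vcan led the OPCs, Bcas1, Enpp6, Gpr17 and Tns3 the forming cells, and Prr5l, Aspa, Mog and Mobp the mature OLs, as the names ask. Levels below are in CPM, the UMIs of the gene per 1000000 UMIs of the class in the library, and library values follow that same order. Levels were compared across classes within a gene and were not tested, since all classes were cut from the same nuclei.

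Olig2 and Olig1 lie side by side on the plus strand of chromosome 16 (GRCm38, 91225457 to 91228677 and 91269772 to 91271933), with 41094 bases between them. Myrf and Tcf7l2 share chromosome 19, Myrf on the minus strand at 10208272 to 10240748 and Tcf7l2 on the plus strand at 55741820 to 55933654, where Tcf7l2 has 22 annotated transcripts. Sox10 lies on chromosome 15, Sox8 on 17, Nkx2-2 on 2, Nkx6-2 on 7 and Zfp488 on 14, each on the minus strand. RefSeq promoter windows (GRCm38.p6, 250 bases before a start site) were at hand for 6 of the 9 genes and not for Olig1, Sox10 and Myrf. The 3 shown here hold no annotated exon and belong to 1 gene highest in mature OLs (Nkx6-2) and 2 genes highest in forming cells (Zfp488 and Tcf7l2). They are written 5′ to 3′ on the strand of the gene, at chr7:139582798-139583047 (minus), chr14:33978765-33979014 (minus) and chr19:55741560-55741809 (plus), with motif matches in capitals.
Nkx6-2: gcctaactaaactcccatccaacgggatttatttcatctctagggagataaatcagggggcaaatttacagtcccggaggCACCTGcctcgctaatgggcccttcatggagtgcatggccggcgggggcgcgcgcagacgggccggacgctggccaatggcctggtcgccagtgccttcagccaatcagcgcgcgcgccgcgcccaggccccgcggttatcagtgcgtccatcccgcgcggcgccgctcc
Zfp488: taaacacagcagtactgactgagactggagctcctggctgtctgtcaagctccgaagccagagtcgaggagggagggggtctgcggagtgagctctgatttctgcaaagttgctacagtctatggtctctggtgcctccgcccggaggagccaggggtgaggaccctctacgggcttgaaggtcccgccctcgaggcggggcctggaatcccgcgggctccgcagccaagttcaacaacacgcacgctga
Tcf7l2: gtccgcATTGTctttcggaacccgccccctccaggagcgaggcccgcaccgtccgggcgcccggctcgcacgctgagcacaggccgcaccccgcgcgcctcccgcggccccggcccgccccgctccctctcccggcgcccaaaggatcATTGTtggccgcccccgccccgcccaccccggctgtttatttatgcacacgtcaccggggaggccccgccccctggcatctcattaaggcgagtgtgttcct
The motifs searched on both strands were TCAAAG (the TCF/LEF core), ACAAT (the SOX core) and CANNTG (the E-box that helix-loop-helix factors bind). The capitals mark 1 E-box in the Nkx6-2 window and 2 SOX cores, both on the opposite strand, in the Tcf7l2 window. The Zfp488 window held none of the 3 motifs. Over all 6 genes, 3 had a SOX core (Olig2, Nkx2-2 and Tcf7l2), 3 an E-box (Sox8, Nkx2-2 and Nkx6-2) and 0 a TCF/LEF core. Among 32851 mouse promoters of the same length, 27.7% held a SOX core, 66.2% an E-box and 13.8% a TCF/LEF core, and a match marks letters and not a bound site.

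The lineage factors fell into 3 patterns over the stages. Olig1 and Olig2 were highest in OPCs, Sox10, Sox8, Nkx2-2, Zfp488 and Tcf7l2 in forming oligodendrocytes, and Nkx6-2 and Myrf in mature OLs. Within each library the highest stage lay above both other stages for 9 of 9 genes. For 6 of them (Olig2, Sox8, Nkx2-2, Nkx6-2, Zfp488 and Tcf7l2) the range of the 4 libraries in that stage overlapped neither other stage, whereas Olig1, Sox10 and Myrf overlapped a neighbour.

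Olig2 in OPCs was at 147, 112, 103 and 180 CPM. In forming cells it was at 78.0, 54.3, 46.4 and 92.6, and in mature OLs at 49.1, 33.9, 31.3 and 44.4. Every OPC library lay above every later-stage library, and the ratio of OPCs to mature OLs was 3.42 of the means, with 2.99 to 4.06 over libraries. Dividing OPCs (27, 17, 5 and 15 nuclei) held 175 ± 73.4 CPM of Olig2 (SD, n = 4), beside 136 ± 35.2 in the other OPCs, with overlapping ranges.

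Olig1 followed the same order with a smaller step. In OPCs it was at 227, 150, 187 and 336 CPM and in mature OLs at 134, 107, 75.5 and 145, a ratio of 1.95 of the means with 1.40 to 2.48 over libraries. Forming cells were spread from 59.6 in nude, on 9 UMIs, to 266 in BALB/c, on 46 UMIs. They were not separated from either neighbour in the order.

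Sox10 was high in all 3 stages. Its forming levels were 298, 300, 331 and 185 CPM. The OPC levels were 181, 217, 193 and 173, and the mature levels 103, 176, 132 and 99.7. The forming level of BALB/c, from 20 nuclei and 32 UMIs, lay inside the OPC range, and the OPC and mature ranges overlapped by the C57J 2 mature value alone. Sox8, its close relative, was at 64.4, 75.4, 62.4 and 93.4 in OPCs, 116, 140, 119 and 110 in forming cells and 65.7, 79.5, 44.7 and 66.9 in mature OLs. For Sox8, OPCs and mature OLs were not separated, with a ratio of 0.949 to 1.40 over libraries, above 1 in 2 of 4.

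Myrf was near the lower limit in OPCs and high in both later stages. OPCs held 13.2, 14.1, 7.69 and 4.01 CPM, on 19, 15, 9 and 11 UMIs. Forming cells held 180, 145, 126 and 110 and mature OLs 181, 152, 130 and 139. The mature level was 15.4 times the OPC level by means, and forming and mature ranges overlapped almost whole, with a ratio of 0.789 to 0.995 over libraries. Summed markers of mature OLs in OPCs were 920, 1039, 699 and 563, in the same order over libraries as the Myrf level, and the part of carried-over RNA in the OPC level was not tested.

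Nkx6-2, which in the adult is known from myelinating cells, came later than Myrf. OPCs held 1.39, 1.89, 1.71 and 1.10 CPM, on only 2, 2, 2 and 3 UMIs, beside 1.15 ± 0.242 in LS neurons (SD, n = 4). Forming cells stood at 18.8, 10.3, 19.9 and 28.9, on 7, 4, 3 and 5 UMIs. Mature OLs held 47.8, 42.3, 43.6 and 54.7, above every forming library. By means the forming level was 41.4% of the mature level for Nkx6-2 and 93.2% for Myrf.

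Nkx2-2 and Zfp488 both peaked in forming cells and were low at the end. Nkx2-2 was at 42.9, 45.2, 28.2 and 33.2 CPM in OPCs, at 78.0, 77.6, 72.9 and 162 in forming cells and at 10.2, 12.4, 6.68 and 8.38 in mature OLs. The 3 stages did not overlap, and the forming level was 10.4 times the mature level by means, with 6.26 to 19.3 over libraries. Zfp488 was at 24.9, 27.3, 27.4 and 40.9 in OPCs, at 72.6, 64.7, 66.2 and 57.9 in forming cells and at 14.3, 11.7, 6.16 and 6.80 in mature OLs. Its stages were separate as well, and the forming level was 6.71 times the mature level, with 5.06 to 10.7 over libraries.

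Tcf7l2 had the sharpest peak. Forming cells held 2055, 1842, 1994 and 1048 CPM, on 764, 712, 301 and 181 UMIs. OPCs held 130, 148, 151 and 197, and mature OLs 60.9, 61.2, 66.8 and 87.7. The forming level was 11.1 times that of OPCs by means (5.32 to 15.8 over libraries) and 25.1 times that of mature OLs (11.9 to 33.7). BALB/c was the lowest library in forming cells and the highest in OPCs and in mature OLs. Though kept out of the clustering, Tcf7l2 was among the genes that led the forming cluster.

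**Figure D1:**
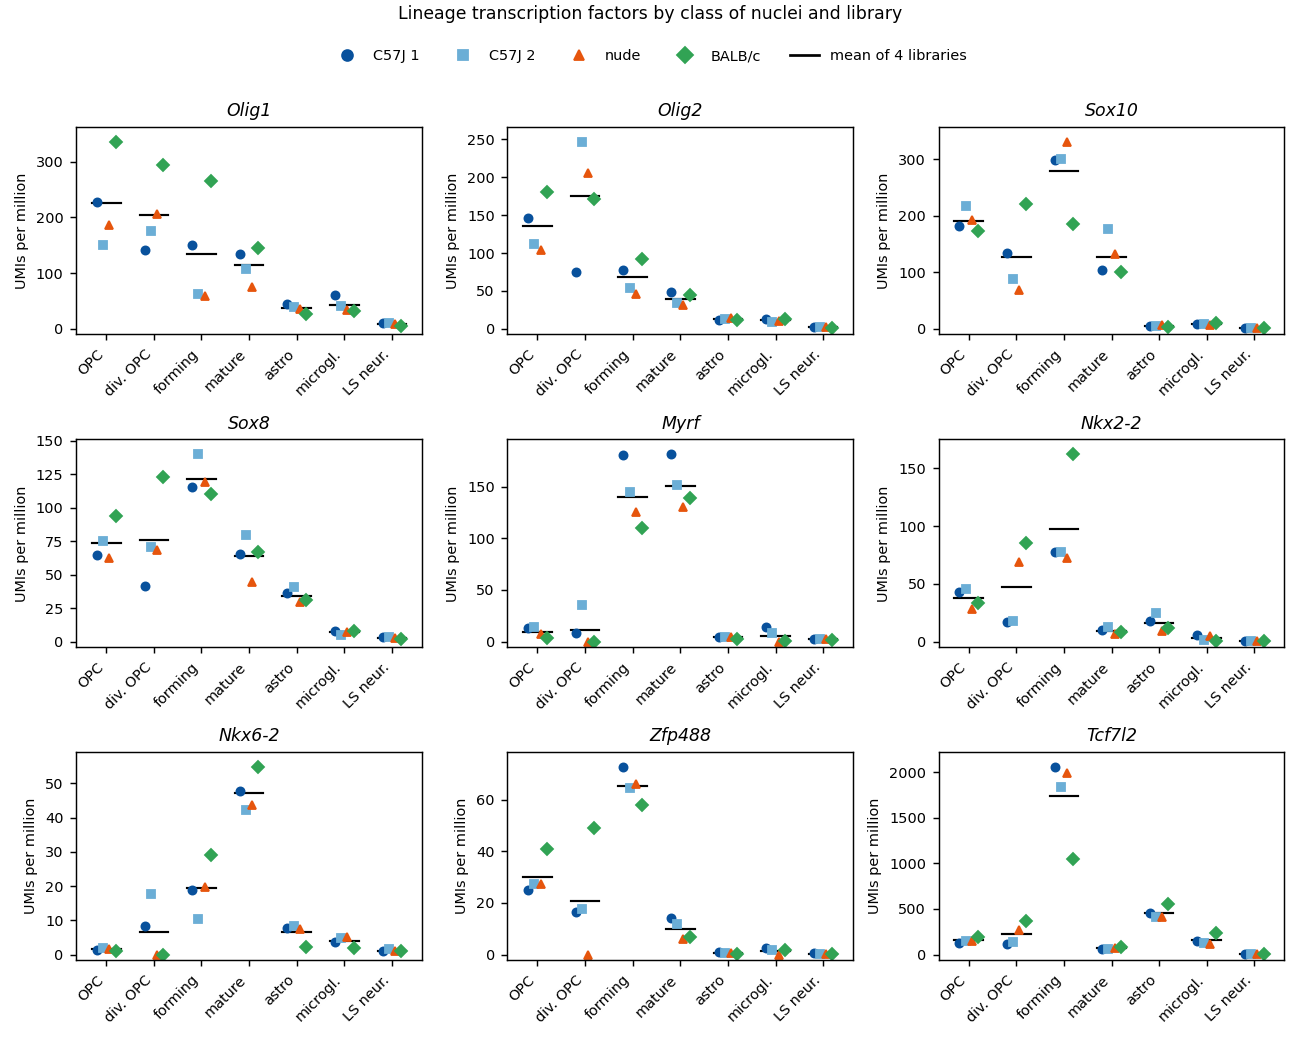
Levels of the 9 genes in CPM (vertical axis) in OPCs, forming oligodendrocytes, mature OLs, dividing OPCs, astrocytes, microglia and LS neurons, with 1 point per library and the mean over the 4 libraries. Tcf7l2 stands at 1048 to 2055 in forming cells against 60.9 to 87.7 in mature OLs, and Nkx6-2 is highest in mature OLs at 42.3 to 54.7.

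Pooled over libraries, shares of nuclei with at least 1 UMI were highest in the same stages at equal depth, but some separations were lost. Each nucleus was thinned to 1000 UMIs, which left out 0 to 1 OPCs, 0 forming and 4 to 17 mature nuclei per library. The library ranges of forming cells and OPCs then overlapped for Olig2 and for Zfp488 (2.63% to 6.74% against 1.905% to 3.26%). For Nkx6-2, forming cells (1.12% to 5.00%) overlapped mature OLs. The highest stage of Sox8, Nkx2-2 and Tcf7l2 stayed separate, and that of Sox10 was separate here. LS neurons served as the class that should lack these genes. Their median depth was 6637 to 12844.5 UMIs over libraries, against 1338 to 2717 in microglia, another class outside the lineage. Tcf7l2 was seen in 45.0% to 71.1% of forming nuclei over libraries, 11.6% to 15.5% of OPCs, 5.17% to 8.36% of mature OLs and 0.114% to 0.740% of LS neurons. Myrf was seen in 10.8% to 17.4% of mature OLs, 5.00% to 13.5% of forming nuclei and 0.464% to 1.26% of OPCs, beside 0.114% to 0.307% of LS neurons. Microglia had Myrf in 0% to 0.843%, which overlapped the OPC range, and Nkx6-2 in 0.281% to 1.03%. Nkx6-2 reached 4.26% to 6.14% of mature OLs and 0% to 0.505% of OPCs, where LS neurons had 0.069% to 0.185%, so that its OPC share was not told apart from background. In BALB/c OPCs it was seen in 0 of 491 nuclei, which allows a share of up to 0.748% with a UMI at this depth (exact Clopper-Pearson limit, which like all intervals here covers counting error only). This does not limit nuclei that express it, and without thinning 3 of the 491 nuclei had a UMI.

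There were 6 factors detected in a larger share of OPCs than of mature OLs in every library: Olig1, Olig2, Sox10, Nkx2-2, Zfp488 and Tcf7l2. Olig1 was seen in 12.4% to 28.9% of OPCs and 7.92% to 14.6% of mature OLs, and Sox10 in 15.2% to 19.2% and 9.20% to 16.7%. Without thinning, Tcf7l2 was seen in 81.3% to 100% of forming nuclei and Olig1 in 30.6% to 78.2% of OPCs, at median depths from 2595.5 UMIs in nude OPCs to 5352 in BALB/c OPCs. A forming nucleus held on average 1.40 to 1.61 of the 9 factors at 1000 UMIs, an OPC 0.684 to 0.974 and a mature OL 0.490 to 0.651. Apart from Tcf7l2 in forming cells, most nuclei of a class showed no UMI of a given factor at this depth, and absence from a nucleus cannot be read from it.

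**Figure D2:**
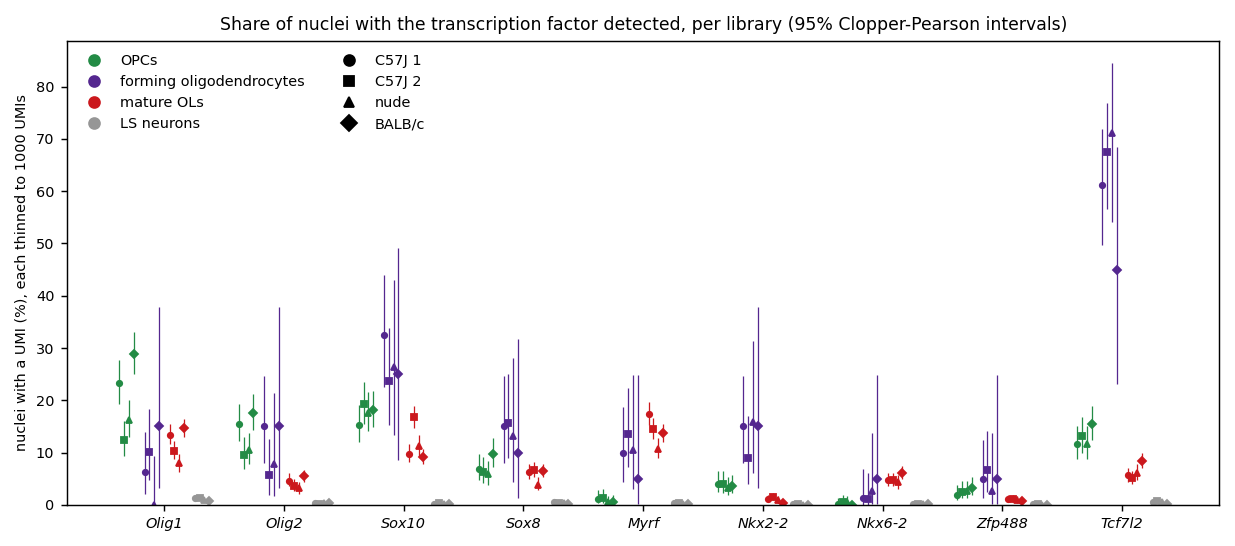
Percent of nuclei with at least 1 UMI (vertical axis) after thinning to 1000 UMIs, for each of the 9 genes in OPCs, forming oligodendrocytes, mature OLs and LS neurons, with 1 point per library and exact 95% Clopper-Pearson bars. Tcf7l2 in forming nuclei is the highest group at 45.0% to 71.1%, and LS neurons lie at or under 1.35% for every gene.

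The forming nuclei were then split by maturity, a split chosen after the data were seen. For each of the 227 nuclei the UMIs of mature OL markers were taken as a share of those of OPC and mature OL markers together, and the nuclei were cut into 3 groups of 76, 76 and 75 at shares of 19.5% and 41.7%, with 20 and 8 nuclei within 2 points of the cuts. The 9 factors had no part in the share. In forming cells the OPC markers summed to 8511, 7542, 10074 and 7995 CPM. Of these Tnr alone held 7075, 6366, 7716 and 5703, and its mean of 6715 lay above 3510 in OPCs. A low share thus mostly reflects Tnr and need not mark likeness to OPCs. The groups are ranges and not types, and BALB/c gave 9, 2 and 9 nuclei to them. Gpr17, a marker of early forming cells, went from 878 to 459 to 92.1 CPM from the least to the most mature group, and was not among the markers of the share.

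Nkx2-2 and Sox8 were highest in the least mature group. Nkx2-2 went from 182 (95% Poisson interval 140 to 233) to 79.1 (51.7 to 116) and 24.2 (11.6 to 44.6), and was lower in the most than in the least mature group in 4 of 4 libraries. Sox8 went from 214 (168 to 269) to 94.3 (64.1 to 134) and 72.7 (49.0 to 104), also lower in 4 of 4. These are a homeobox and an HMG-box factor, and both were already present in OPCs.

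Tcf7l2 and Myrf lay the other way. Tcf7l2 was at 1039 (934 to 1153) in the least mature group, at 2281 (2121 to 2450) in the middle group and at 2069 (1933 to 2213) in the most mature, higher than in the least mature in 4 of 4 libraries. Myrf stood at 106 (74.0 to 146) and 113 (79.2 to 155) in the first groups and at 213 (171 to 263) in the most mature, higher in 4 of 4. Nkx6-2 appeared last, on 2, 1 and 16 UMIs, at 5.87 (0.711 to 21.2), 3.04 (0.077 to 16.9) and 38.8 CPM (22.2 to 63.0). Sox10 went from 203 to 289 and 351, higher in 3 of 4 libraries, with BALB/c as the exception. Olig1, Olig2 and Zfp488 had no shared direction, being higher in the most mature group in 3, 2 and 1 of 4 libraries.

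**Figure D3:**
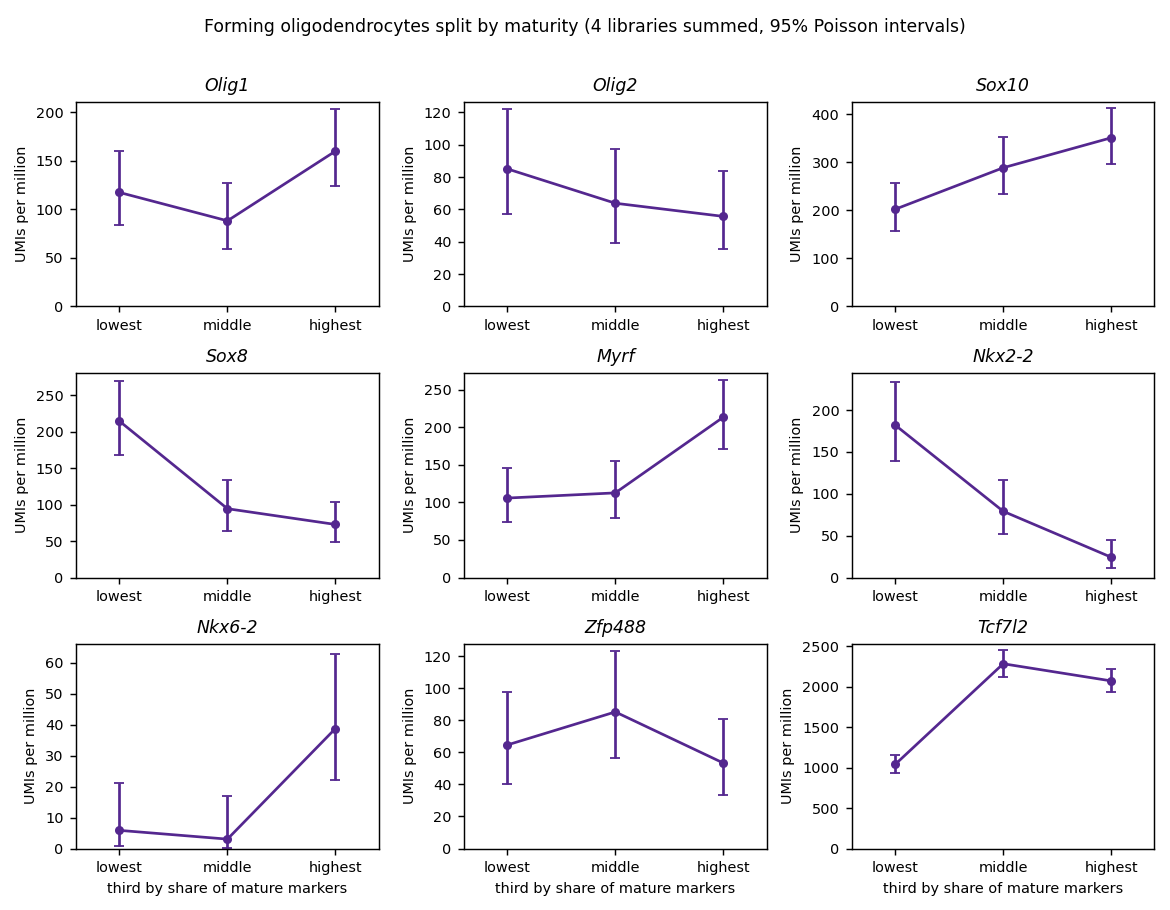
Levels of the 9 genes in CPM (vertical axis) in forming oligodendrocytes of all 4 libraries summed, cut into 3 groups by their share of mature OL marker UMIs, with exact 95% Poisson intervals. Between the least and the most mature group Nkx2-2 goes from 182 to 24.2, Sox8 from 214 to 72.7, Myrf from 106 to 213 and Tcf7l2 from 1039 to 2069.

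Mature OLs were not uniform for Zfp488. At a finer clustering they formed 4 clusters, 2 of which were large and mostly parted the libraries (the BALB/c nuclei split 55 to 1246 between them). A smaller cluster of 466 nuclei was led by Opalin, a myelin membrane gene, and another of 574 nuclei by 4930420G21Rik, A330049N07Rik and Anln. Zfp488 in the Opalin-led cluster was at 20.6, 25.4, 22.4 and 30.5 CPM, on 47 UMIs in all. In the Anln cluster it was at 2.34, 0, 0 and 0, on 1 UMI in all. No library of the first overlapped the second, and the large clusters ranged from 0 to 15.9. Nkx6-2 went the same way, with 61.8 to 67.2 in the Opalin-led cluster and 25.9 to 54.1 in the Anln cluster. Myrf did not separate them, at 106 to 168 and 114 to 154. The Opalin-led nuclei were deeper, with a median of 2697 to 7205 UMIs over libraries against 2204.5 to 4515 in the Anln cluster.

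**Figure D4:**
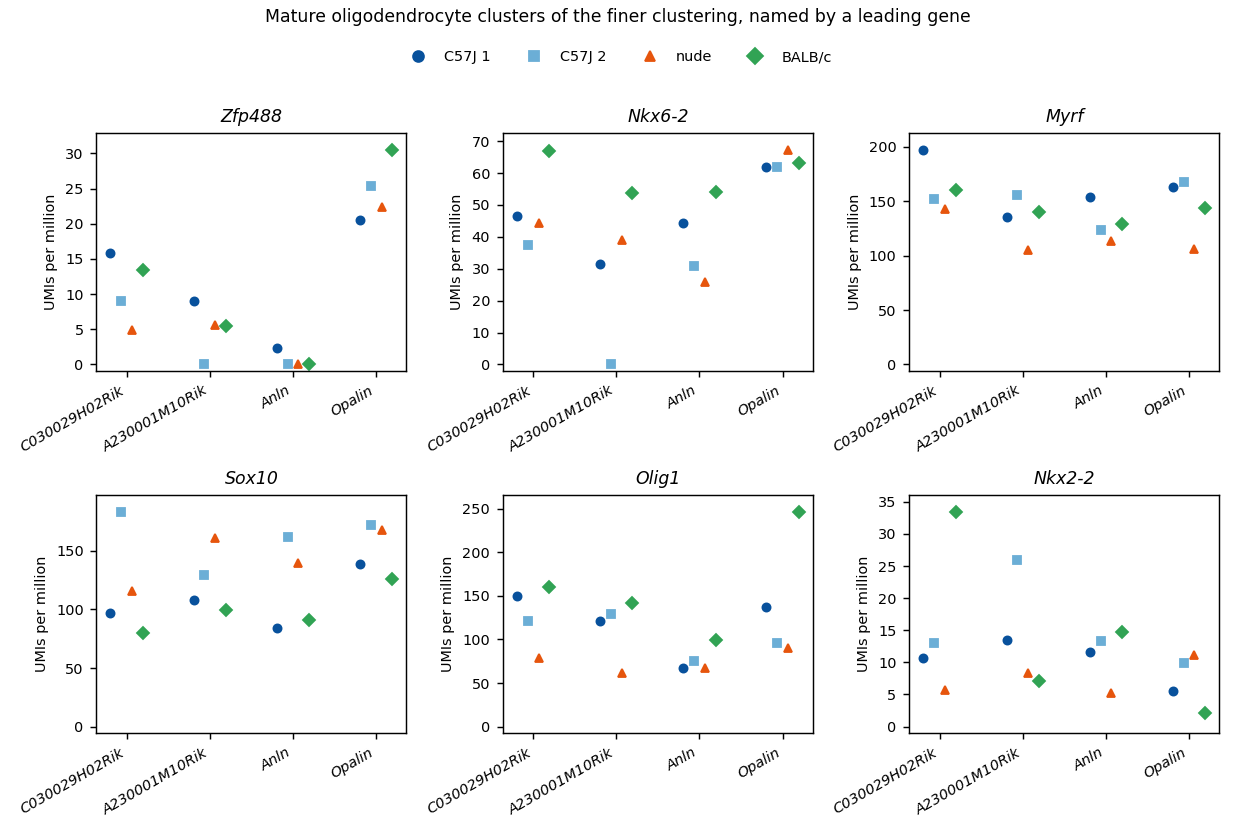
Levels of 6 of the genes in CPM (vertical axis) in the 4 clusters of mature OLs, each named by a leading gene, at the finer resolution, with 1 point per library. Zfp488 is at 20.6 to 30.5 in the Opalin-led cluster and at 0 to 2.34 in the Anln cluster.

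Outside the lineage Tcf7l2, Sox8, Nkx2-2 and Nkx6-2 were higher in astrocytes than in microglia and in LS neurons in 4 of 4 libraries. Tcf7l2 in astrocytes was at 456, 417, 409 and 552 CPM, between forming cells and OPCs with no overlap of either, and was seen in 32.2% to 41.1% of astrocytes at 1000 UMIs. Sox8 was at 36.4, 40.5, 29.2 and 31.4, and Nkx2-2 at 17.7, 25.2, 8.83 and 11.7. Microglia, in which summed mature OL markers were higher than in astrocytes in each library (969 to 1912 against 659 to 1249), held less of both, with a ratio of astrocytes to microglia of 4.02 to 8.41 for Sox8 and 1.70 to 15.7 for Nkx2-2. For Nkx6-2 the ratio was 1.19 to 2.16, on only 2 or 3 microglial UMIs a library, and the Poisson intervals of the classes overlapped in every library. Olig1, Olig2, Sox10, Myrf and Zfp488 in astrocytes did not exceed microglia in every library. For Olig1 the astrocyte level was 45.0, 40.0, 35.9 and 27.2 and the microglial level 60.7, 41.8, 34.6 and 32.2.

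Tcf7l2 was also found in microglia at 150, 122, 114 and 233 CPM and in 11.3% to 20.3% of them, and in ependymal nuclei at 230 to 290, from 5 to 23 nuclei a library. LS neurons were at 2.1 to 6.9. Sox8 had a place among neurons: in a cluster of striatal neurons led by Rarb it was at 17.3, 23.6, 29.4 and 26.6, whereas the median of 28 neuron clusters was 2.19. The other striatal cluster with over 100 nuclei in each library was at 5.93, 2.78, 7.29 and 7.20. Olig1 over all striatal neurons was at 8.59 to 16.1, beside a median of 8.8 over the 28 neuron clusters. These 28 include the striatal clusters, 1 of which was the highest for Olig1 at 20.4.

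Some of these genes overlap transcripts on the other strand, and whether the counting used strand is not stated in the sources used here, so reads of the pair may not be told apart. Nkx2-2os, an antisense RNA over 2 exons of Nkx2-2, did not follow it over the stages of the lineage. Its mean was 58.4 CPM in OPCs, 109 in forming cells and 139 in mature OLs, where Nkx2-2 was at 9.41. By library Nkx2-2os was at 112, 138, 131 and 174 in mature OLs against 49.2, 59.4, 65.8 and 59.1 in OPCs, and the ranges did not overlap. Outside the lineage its mean was 113 in astrocytes, 6.87 in microglia and 1.71 in LS neurons, the same order as for Nkx2-2. The part of shared reads in the astrocyte level of Nkx2-2 was not tested. The RNA 2810468N07Rik, antisense over an exon of Sox8, was at 25.6, 60.2 and 78.8 in the 3 stages, while Sox8 was lower in mature OLs than in forming cells. Olig1 and Nkx6-2 also share an exon with Gm15966 and Inpp5a on the other strand.

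Over the means of 15 classes, taken on a log scale, the pattern of each factor was compared with 12312 genes by Pearson's r. It is a description in which the classes share their libraries. Olig1 and Olig2 were each other's nearest gene, with r = 0.967. Sox10 was nearest to Gjc3 (0.973), which encodes a glial gap junction protein, and to Prkcq (0.971). Zfp488 was nearest to Prkcq (0.944) and Sox10 (0.933), and Nkx2-2 to Scrg1 (0.952). Nkx6-2 was nearest to Gm19500 (0.929), and Myrf to 2810468N07Rik (0.934), followed by Bace1 (0.904), a protease. Only Olig1, Olig2 and Zfp488 had another of the 9 factors among their nearest 3 genes. The nearest 3 were Fkbp9 (0.926), Gng12 and Gramd3 for Tcf7l2 and Rnf144a (0.907), Gpsm2 and 2610035D17Rik for Sox8.

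The strain comparison asked whether these levels differ between C57J mice and mice of the BALB/c background. Counts were summed per library and class, and the 2 C57J libraries were set against nude and BALB/c with edgeR's quasi-likelihood test. A gene was called at an adjusted p under 0.05 and an absolute log2 fold change over 0.5, and positive values are higher on the BALB/c background. With 1 pool per library the p-values measure only the spread between libraries, which may be technical. That spread also holds the difference of nude from BALB/c in 1 arm and of the 2 batches in the C57J arm.

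In OPCs 0 of the 8 factors tested were called by edgeR and 0 by DESeq2, where 0.451% of 10636 genes were called by edgeR. Nkx6-2 was too low to test. There were 2 with an unadjusted p under 0.05, as for 7.60% of all genes tested: Myrf with a log2 fold change of -1.27 (SE 0.46, adjusted p = 0.499) and Tcf7l2 with 0.42 (SE 0.19, adjusted p = 0.656). Myrf was lower in both BALB/c-background libraries than in both C57J libraries, on 9 to 19 UMIs each. Summed mature OL markers in OPCs moved with Myrf, as given above. Tcf7l2 was higher in both. Olig1 had 0.56 (SE 0.27, adjusted p = 0.684), and 0.94 when nude was left out, a fit with BALB/c alone in its arm. Nude lay between the C57J libraries, and BALB/c stood apart at 336, in the deepest library.

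In mature OLs edgeR called 0 of 9 and DESeq2 0 of 9, beside 0.104% of 12474 genes. Zfp488 was the 1 factor with an unadjusted p under 0.05 (5.26% of all genes), at -0.92 (SE 0.33, adjusted p = 0.832), with 14.3 and 11.7 in C57J against 6.16 and 6.80. Within the Opalin-led cluster it was not lower, at 20.6 and 25.4 in C57J against 22.4 in nude and 30.5 in BALB/c. Within the largest cluster of mature OLs it was lower in nude, at 4.935, than in C57J, at 15.9 and 9.06. BALB/c was at 13.4 there, from only 55 nuclei and 2 UMIs. In the other large cluster, with 1246 BALB/c nuclei, Zfp488 was at 9.01 and 0 in C57J, on 2 and 0 UMIs. Nude was at 5.56 there, on 2 UMIs, and BALB/c at 5.505, on 27 UMIs. The Opalin-led cluster held 10.5% and 18.4% of mature OLs in C57J against 4.59% and 3.91%. These shares were not compared, since its leading gene Opalin was itself at -1.09 (SE 0.22, adjusted p = 0.282). Their part in the Zfp488 value was not tested. Tcf7l2 was at 0.41 (SE 0.24, adjusted p = 1.00), higher in both BALB/c-background libraries as in OPCs. Myrf and Sox10 had -0.25 (SE 0.22) and -0.23 (SE 0.29). The median of the 9 was -0.23 and that of all genes tested -0.01.

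In OPCs Zfp488 had a value of the other sign, 0.52 (SE 0.28). Tested as the difference between mature OLs and OPCs, it was -1.46 (SE 0.35, adjusted p = 0.851 by edgeR), and -1.54 without nude. Myrf had a difference of 1.06 (SE 0.42, adjusted p = 1.00), and 1.54 without nude. With all libraries 0 of 9 were called by edgeR and 0 by DESeq2, 4 had an unadjusted p under 0.05 (Olig1 and Sox8 beside these) as for 4.52% of all genes, and 0.00769% of 13007 genes were called.

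Among astrocytes 0 of 8 factors were called by edgeR or DESeq2, beside 0.121% of 14035 genes. The 1 with an unadjusted p under 0.05 (7.55% of all genes) was Nkx2-2 at -0.95 (SE 0.28, adjusted p = 0.493), lower in both BALB/c-background libraries, and it was called when no filter on low counts was set (-0.93, adjusted p = 0.043). Nkx6-2 was at -0.79 (SE 0.54, adjusted p = 0.799), and at -1.65 without nude. Tcf7l2 was at 0.21 (SE 0.21, adjusted p = 0.868).

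For LS neurons, where these genes lie near background, 0 of 9 were called by either tool while 2.22% of 18844 genes were. Olig1 had the 1 unadjusted p under 0.05 (14.5% of all genes), at -0.61 (SE 0.22, adjusted p = 0.268). All 9 values were negative, with a median of -0.59 beside -0.01 over all genes, and summed mature OL markers in LS neurons were at 327 and 367 CPM in C57J against 236 and 213. Their part in these values was not tested.

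**Figure D5:**
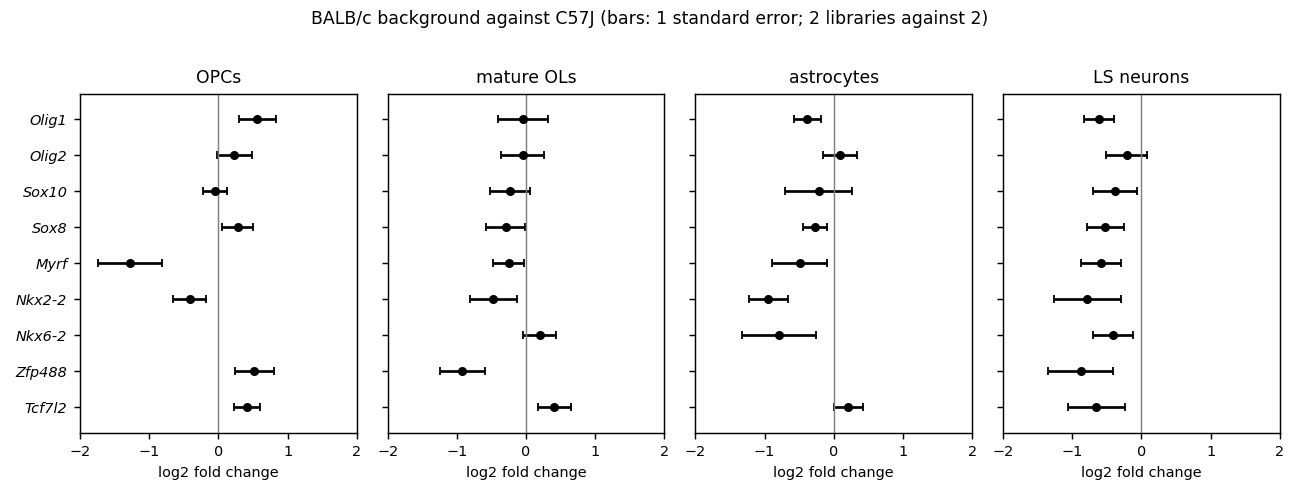
Log2 fold change of each gene (horizontal axis, BALB/c background over C57J, 2 libraries each) in OPCs, mature OLs, astrocytes and LS neurons, with bars of 1 SE from edgeR. Myrf in OPCs lies at -1.27 and Zfp488 in mature OLs at -0.92, and no gene passed the adjusted limit.

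Forming oligodendrocytes were not tested, since BALB/c held 20 nuclei. Tcf7l2 there was at 1048 in BALB/c (Poisson interval 901 to 1212), below 1842 (1709 to 1982) in C57J 2 of the same batch, and at 1994 (1775 to 2232) in nude, which overlapped C57J 2. Nkx2-2 was at 162 (108 to 234) in BALB/c, 72.9 (36.4 to 130) in nude and 77.6 (52.4 to 111) in C57J 2. The intervals of BALB/c and C57J 2 overlapped narrowly. Olig1 was at 266 (195 to 355) in BALB/c, 59.6 (27.3 to 113) in nude and 62.1 (39.8 to 92.4) in C57J 2. C57J 1, of the other batch, was at 151 (114 to 196) for Olig1, with an interval that overlapped BALB/c at its upper end. These BALB/c nuclei were spread differently over the maturity groups (9, 2 and 9), and a median depth of 8216 UMIs stood against 3790 in C57J 2. The part of either in these differences was not tested, and nude and BALB/c have 1 library each with no replicate.

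The genes around the factors were taken from lists. Of 22 myelin genes, 19 were highest in mature OLs and 3 in forming cells. Of 30 other lineage regulators 18 were highest in OPCs, 5 in forming cells and 7 in mature OLs, which is 60.0% in OPCs against 31.5% over all 8186 genes at that level. The 12 Wnt pathway genes around Tcf7l2 were highest in OPCs, forming cells and mature OLs in 4 cases each.

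In the strain comparison, edgeR and DESeq2 both called 0 genes of these 3 lists and of 15 precursor genes in OPCs and in mature OLs. Among 18 myelin genes tested in OPCs 9 had an unadjusted p under 0.05, beside 7.60% of all genes, and the median log2 fold change was -0.41. Mbp, the basic protein of compact myelin, had -0.98 (SE 0.20, adjusted p = 0.0567) and Mal, a myelin membrane protein, -1.16 (SE 0.27, adjusted p = 0.112). Summed mature OL markers moved with this, at 920 and 1039 in C57J OPCs against 699 and 563, and their part was not tested. Of the precursor genes in OPCs, Bcas1 had 0.65 (SE 0.21, adjusted p = 0.397) and Pdgfra, the growth factor receptor of OPCs, 0.49 (SE 0.19, adjusted p = 0.569). Among regulators, Hdac1, a histone deacetylase, had -0.95 (SE 0.26, adjusted p = 0.236) in OPCs and -0.68 (SE 0.22, adjusted p = 0.704) in mature OLs, and fell in LS neurons with -0.87 (SE 0.12, adjusted p = 0.0192). From the Wnt list, Tcf7l1, a relative of Tcf7l2, had 0.64 (SE 0.20, adjusted p = 0.379) in OPCs, and Axin2, a feedback target of Wnt signalling, 0.50 (SE 0.35, adjusted p = 0.802).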

How the data were processed

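Nuclei from 4 libraries (2 C57J, 1 nude, 1 BALB/c) were analysed from the raw UMI count matrices that the authors deposited, made with Cell Ranger 7.0.1 on mm10 per the submitters' processing notes. Whether intronic reads or strand were used is not given in the sources used here. Barcodes with 200 to 6000 genes, 300 to 50000 UMIs and at most 2% mitochondrial UMIs were kept, and doublets were predicted from simulated pairs and removed (9.66% to 11.9%). Nuclei were clustered on 40 components of 3000 variable genes with neighbours balanced over libraries (leidenalg 0.10.2, resolution 1), without the 9 genes, 30 other regulators and 6 sex-linked genes, and classes were named from markers. Of 54 clusters, 43 had at least 10 nuclei and 15 classes were named. Sums per library and class were tested with edgeR 4.0.16 (filterByExpr, TMM, quasi-likelihood, Benjamini-Hochberg over all genes tested), with DESeq2 1.42.0 and the settings of the closing section as alternatives. Scripts were tested on simulated data. All 9 genes are named, and of each list the 2 called genes with the highest and the 2 with the lowest change per class or, with none called, the 2 of lowest unadjusted p. Poisson intervals, where given, are exact, and at the depths given a class of 20 nuclei bounds only large differences. The members and lists were chosen with earlier results of these data known. Promoters are from RefSeq and gene positions from GENCODE, both GRCm38. For 1 further gene of the lists the result is not reported here.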

Additional observations from a re-analysis of the deposited data

How the results depend on the processing

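The stage order held within each library for 9 of 9 genes (8 with doublets kept, with the members in the clustering or at 1000 UMIs). In OPCs the count of genes called, 48, became 169 with no filter on low counts and 14 at 1000 UMIs per nucleus, and leaving out 1 library gave 31 to 222. In mature OLs the count of 13 became 245 with no filter, 74 with DESeq2 and 90 with doublets kept, with 5 to 1155 leaving out 1 library. In astrocytes 17 became 8 with RLE scaling, 445 with no filter, 97 with DESeq2 and 98 with doublets kept, with 0 to 1153 leaving out 1 library. In LS neurons 419 became 960 with no filter, 684 with DESeq2 and 173 at 1000 UMIs, with 81 to 1257 leaving out 1 library. For the difference between mature OLs and OPCs the count of 1 became 74, 7, 12 and 2 with no filter, DESeq2, doublets kept and 1000 UMIs, with 2 to 910 leaving out 1 library. The highest counts in OPCs, mature OLs, astrocytes and the difference came without nude, which leaves BALB/c alone in its arm and assumed to vary as the C57J libraries do. Of 466 values of the 9 genes under alternatives, 5 were past the limits and 33 changed sign, none of a called value. The causes were not tested. No paired analysis was possible because the groups compared share fewer than 2 replicate numbers. Small classes (20 BALB/c forming nuclei) and genes at 2 or 3 UMIs limit what depth can show.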

Other observations

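Joint detection of the factors in single nuclei was set against the product of their shares. At 1000 UMIs, 2 of 36 pairs in OPCs were joint more often than the product of their shares in all 4 libraries, Olig1 with Nkx2-2 in 20 nuclei (13.4 given by the product) and Olig1 with Tcf7l2 in 56 (48.0). In mature OLs 4 of 36 were, and 3 of them held Nkx6-2: with Sox10 in 42 nuclei (28.8), with Olig1 in 42 (30.8) and with Olig2 in 19 (11.3). Olig2 with Sox10, the fourth, was in 28 (24.4). The pair Myrf and Zfp488 was below the product in every library, with 2 mature OLs against 7.07. In OPCs 6 of 36 pairs lay at or below it in every library. Of these, 4 held Nkx6-2, with 0 joint nuclei where the product gave at most 0.612. The others were Olig1 with Sox8 in 22 nuclei (27.8) and Nkx2-2 with Tcf7l2 in 4 (8.49). In forming oligodendrocytes 0 of 36 pairs lay above it in all 4 libraries, and 7 lay at or below it in each. Each of the 7 had 0 joint nuclei where the product gave at most 1.86. No test was made of these counts. How many pairs would lie above or below in every library with no association was not estimated.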
